A study of Brassica oleracea var. italica with 18 samples.

Results

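Among the probes of a Brassica expression array, 150 differed most between 27 °C and 15 °C in the shoot meristem of a heat-tolerant broccoli line (HT) while their group means stayed flat in a heat-sensitive line (HS). The 150 members were chosen on the authors' log2 values, in steps. Of 43603 probes, 26247 were marked well above background on all 18 arrays. Of these, 14854 had HS means at 22 °C and 27 °C within 0.3 log2 units of the HS mean at 15 °C. The 150 of these with the largest absolute difference between HT at 27 °C and HT at 15 °C were kept. In HT at 27 °C against 15 °C, 76 members were higher (the upward set) and 74 were lower (the downward set), and the members read 149 different targets. Because these values selected the members, the HT differences between 27 °C and 15 °C and the flat HS means are described below without a test.

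HT is the inbred line B295 and HS is BR1 op, both Brassica oleracea var. italica. Plants of both lines were raised at 22 °C in long days and then kept at 15, 22 or 27 °C, and shoot meristems were taken before any head had formed. HT at 15, 22 and 27 °C was compared with HS at the same temperatures, each group with 3 biological replicates on 3 arrays. The labels and the methods give different lengths of temperature treatment, and although the methods speak of 3 individual plants, they do not settle whether an array holds 1 plant or several. Each kind of tolerance is represented by 1 line. In this bulk tissue, fewer cells of a type and less RNA per cell cannot be told apart. The labelled tissue could hardly be checked, because none of the 11 Arabidopsis loci of meristem markers was found in the annotation used here, against 1 of 8 floral loci (LFY, well above background on all arrays) and 1 light-harvesting probe.

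A broccoli head is a mass of arrested inflorescence meristems, and its formation depends on cool growth temperatures in most genotypes. In Arabidopsis, jasmonate and salicylic acid are hormones that steer wound and pathogen responses, often against each other. WRKY transcription factors and receptor-like kinases at the cell surface act in these responses. Temperature is known to shift the balance of such defence programmes in the same species.

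Values are quantile-normalised log2 intensities, so that 1 unit is a doubling of the array signal. The scanner software marked 63.9% to 69.8% of an array's probes as well above background and none as saturated. At 15 °C, the arrays of both lines lay on 2 slides that held no other temperature, so that 27 °C against 15 °C cannot be told apart from slide within a line. The HT and HS arrays of a replicate shared a slide at each temperature, but at different positions on it, and line and array position cannot be told apart. Over all probes well above background, each array correlated with the mean of the other arrays of its group at 0.989 or more, and no array stood apart there.

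Within the downward set, however, the third HT replicate at 15 °C did. The median of the downward members was 0.99 and 0.66 log2 units above their HS mean in HT replicates 1 and 2 at 15 °C, but 0.05 in replicate 3. It was −0.39, −0.45 and −0.33 in the HT replicates at 22 °C and −0.57, −0.60 and −0.88 at 27 °C. Replicate 3 was the lowest of the 3 HT arrays at 15 °C in 58 of the 74 downward members, and replicate 1 was the highest in 62. Measured against each of these arrays alone, the median decrease of the HT mean at 27 °C was −1.46, −1.14 and −0.64 for replicates 1, 2 and 3. Replicates 1 and 2 shared a slide, and replicate 3 was on another. The HS arrays on the same slides, whose group means the rule held flat, had downward medians of 0.04, 0.06 and 0.01 at 15 °C. Whether the slide played a part was not tested. In the upward set the 3 HT arrays at 15 °C lay close together, at −0.50, −0.51 and −0.42, below the HT medians at 22 °C (−0.11, −0.05 and −0.27) and at 27 °C (0.21, 0.30 and 0.26).

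**Figure D1:**
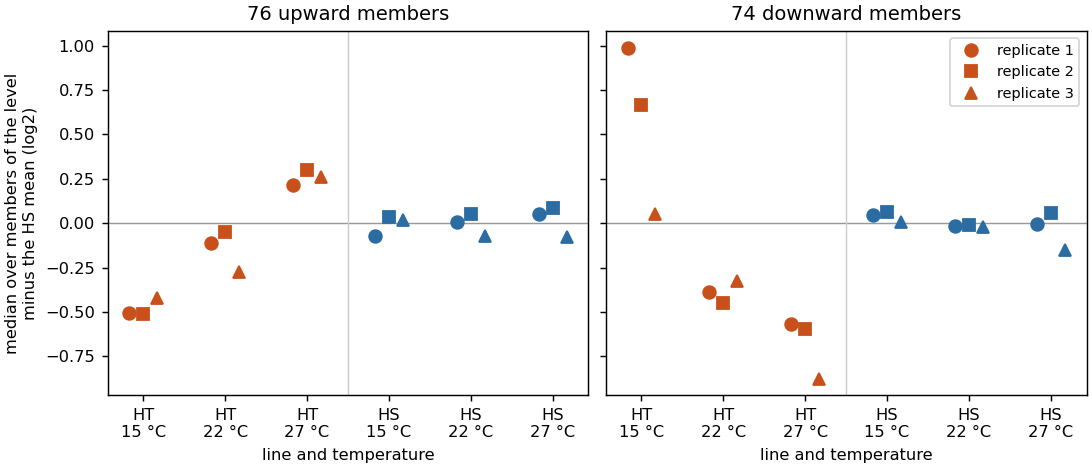
Median over the 76 upward members (left) and the 74 downward members (right) of the log2 level minus each member's HS mean, 1 point per array, with HT groups left of HS groups. The downward members lie above the HS mean in HT replicates 1 and 2 at 15 °C (0.99 and 0.66), whereas replicate 3 lies at 0.05.

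The sizes by which the members were chosen ran up to 3.62 log2 units for the upward set (median 0.86 on the quantile-normalised values) and down to −2.91 for the downward set (median −0.98). In the authors' values, 26 upward and 36 downward members differed by at least 1 log2 unit. In these values the median over all probes was itself 0.116 higher at 27 °C than at 15 °C in HT and 0.0858 higher in HS, a shift that quantile normalisation removes. Near the limit, rank 149 (A_46_P305139) had −0.758, rank 150 (A_46_P308415) −0.757, rank 151 (A_46_P157904) −0.756 and rank 152 (A_46_P240684) −0.756, so the last members do not stand apart from the first probes outside. The last member was among the brightest probes, at 16.19, 15.95 and 15.21 in HT at 15 °C and 14.99, 15.06 and 15.25 at 27 °C, and these arrays overlapped. The arrays of HT at 27 °C and 15 °C did not overlap in 61 upward and 62 downward members, and overlapped in the other 27, while 36.9% of the 14854 probes with a flat HS line showed no overlap. These counts follow from how the members were chosen, and nothing is read from them.

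A response in HT with a flat mean in HS is not the same as a tested difference between the lines, and no such test is given for the members, because both parts of that difference chose them. Members varied more between replicates than most probes, with a median residual SD of 0.32 log2 units, against 0.14 for the probes with a flat HS line. They were also dimmer, with a median level of 8.23 against 10.4 log2 units. In 36 members (26 upward, 10 downward) the HS mean lay under 6.74, the level below which lay 10% of all probes well above background. In 41 members the 9 HS arrays spanned more than 1 log2 unit although their 3 means were flat.

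**Figure D2:**
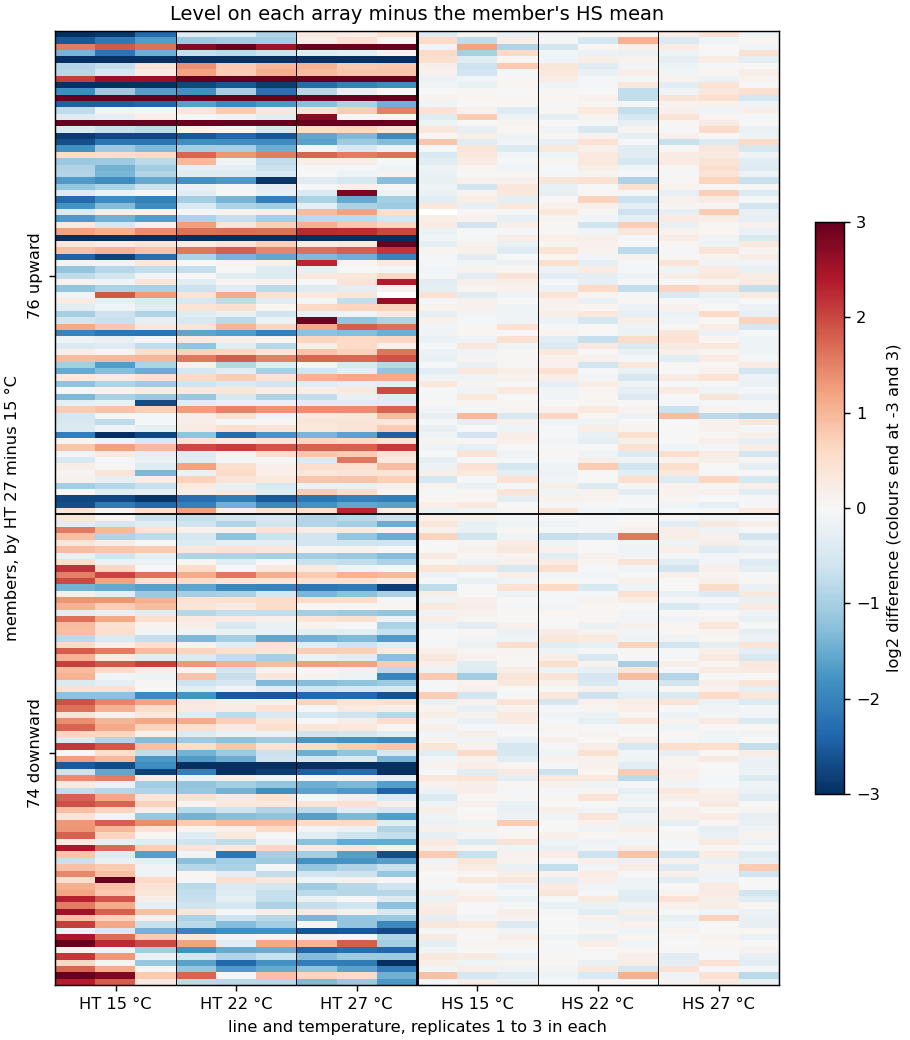
Each of the 150 members (rows, sorted by HT at 27 °C minus 15 °C) on each of the 18 arrays (columns, HT left of HS), as the log2 level minus the member's HS mean, with 2 array values missing (white). The 74 downward members are mostly red in the first 2 HT arrays at 15 °C and paler in the third, and single dark cells show members that rest on 1 array.

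For 18 members (13 upward, 5 downward) the HT difference fell to less than 50% of its size when 1 of the HT arrays at 15 °C or 27 °C was left out. A_46_P236724, in the downward set, read 5.85, 9.15 and 5.92 in HT at 15 °C, with 1 array alone far above the rest. Its level was 5.19 to 5.45 in HT at 27 °C, and 4.999 to 5.65 on the 9 HS arrays. A_46_P033386, in the upward set, read 8.32, 5.54 and 5.68 in HT at 27 °C, against 5.22, 5.34 and 5.76 at 15 °C. These 2 were picked out after their values were seen.

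Only 29 members (14 upward, 15 downward, 27 different loci) had an Arabidopsis locus in the annotation used here, which the study compiled from probes that differed between the lines or followed temperature on these same arrays. All other members are given by their probe identifiers. The array was designed on sequences of several Brassica species, and a probe may read more than 1 near-identical copy of a gene, so a named gene means the locus that its probe was assigned to. Whether a probe matches the sequences of both lines equally well was not tested, and a difference between HT and HS below is one of array signal.

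The upward set was led by LOX2 (AT3G45140, A_46_P229914), the chloroplast lipoxygenase that starts jasmonate synthesis in Arabidopsis. It read 10.19, 12.05 and 12.63 in HT at 15 °C, 14.57, 14.55 and 14.04 at 22 °C and 15.23, 15.15 and 15.40 at 27 °C, and between 14.54 and 15.39 (median 14.98) on the 9 HS arrays. HT was thus far below HS at 15 °C, with its own arrays widely spread, and overlapped HS at 27 °C. Averaged over the 3 temperatures, LOX2 was lower in HT than in HS by a log2 difference of −1.19 ± 0.25 (SE, limma adjusted p = 0.00168), and at 22 °C alone the difference of −0.57 ± 0.43 did not pass (adjusted p = 0.429).

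The reverse arrangement, with HT above HS throughout, was seen for 2 probes of squalene monooxygenase, the enzyme that epoxidises squalene on the way to sterols. The probe assigned to AT5G24150 (A_46_P008776) read 12.07, 11.79 and 12.26 in HT at 15 °C, 12.77, 12.32 and 11.62 at 22 °C and 13.80, 13.69 and 12.50 at 27 °C, against 7.51 to 8.74 (median 8.29) in HS. The probe named squalene monooxygenase 1,1 after a Brassica napus protein (A_46_P243084) read 10.01, 9.71 and 10.19, then 10.58, 10.05 and 9.96, then 11.26, 11.36 and 10.74 in HT, against 5.71 to 6.20 (median 5.94) in HS. For both, most of the HT difference lay between 22 °C and 27 °C, and HT and HS arrays never overlapped. Over the 3 temperatures the HT minus HS difference was 4.30 ± 0.22 (SE, limma adjusted p = 1.16e-09) and 4.48 ± 0.11 (adjusted p = 2.02e-13), the second being the smallest p of any member higher in HT.

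A subtilase, a serine protease of a large plant family (AT4G21650, A_46_P146734), read 6.44, 6.73 and 6.55 in HT at 15 °C, 7.65, 7.94 and 7.41 at 22 °C and 8.12, 8.17 and 8.46 at 27 °C. On the HS arrays it was dim, from 4.004 to 6.10 with a median of 4.91. A glycosyl hydrolase of family 35, a group that cleaves galactose from cell wall polymers (AT5G01075, A_46_P173999), read 7.06, 7.37 and 8.11 at 15 °C, 9.10, 8.62 and 8.97 at 22 °C and 8.84, 8.71 and 8.71 at 27 °C in HT, against 7.31 to 8.20 in HS. Here the HT level at 22 °C was already as high as at 27 °C. A putative poly(A)-binding protein, of the family that coats messenger RNA tails (AT3G16380, A_46_P018941), read 9.06, 9.57 and 9.58 in HT at 15 °C, 9.98, 10.40 and 10.08 at 22 °C and 10.33, 10.51 and 11.09 at 27 °C, against 6.83 to 7.21 in HS. Its HT minus HS difference at 22 °C was 3.11 ± 0.19 (SE, limma adjusted p = 2.12e-08).

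Further upward members had smaller differences and tighter replicates. The cytochrome P450 CYP71B2 (AT1G13080, A_46_P351655) read 9.20, 9.25 and 9.27 in HT at 15 °C, 9.86, 10.08 and 9.78 at 22 °C and 9.99, 10.00 and 10.18 at 27 °C, against 7.97 to 8.49 in HS. AT2G35750 (A_46_P119159), of unknown function, read 8.59, 8.54 and 8.64, then 9.77, 9.35 and 9.60, then 9.77, 9.56 and 9.69 in HT, against 7.57 to 8.34 in HS. In both, the 22 °C arrays lay well above the 15 °C arrays and close to the 27 °C arrays. The plastid α-glucan phosphorylase that acts on starch-derived glucans (AT3G29320, A_46_P182684) read 13.27, 13.66 and 13.42 in HT at 15 °C, 14.41, 14.52 and 14.32 at 22 °C and 14.22, 14.24 and 14.53 at 27 °C, against 12.14 to 12.88 in HS. An uncharacterised conserved protein (AT4G09830, A_46_P330370) read 7.99, 7.84 and 8.20, then 8.42, 8.45 and 8.44, then 9.01, 9.00 and 8.78 in HT, against 6.58 to 7.12 in HS. For these 4, HT was above HS on every array, and the HT minus HS difference over the 3 temperatures was between 1.25 (AT2G35750) and 1.69 (AT4G09830), each with a limma adjusted p of 4.95e-07 or less.

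An RNA-binding KH domain protein (AT1G14170, A_46_P109024) read 10.24, 10.40 and 10.24 in HT at 15 °C, 10.95, 11.16 and 10.84 at 22 °C and 11.03, 11.17 and 11.51 at 27 °C, against 8.59 to 9.78 in HS. An epoxide hydrolase-like protein (AT4G15960, A_46_P018566) read 10.22, 10.43 and 10.87, then 10.97, 10.67 and 10.60, then 11.33, 11.30 and 11.61 in HT, against 10.67 to 11.38 in HS. HT was always higher for the first, while the second overlapped HS at each temperature taken over all HS arrays. Aminodeoxychorismate synthase, which makes a precursor of folate (AT2G28880, A_46_P179689), read 6.88, 7.27 and 6.99, then 7.52, 7.68 and 7.29, then 7.66, 7.78 and 8.14 in HT, against 7.64 to 8.47 in HS. Vacuolar invertase, which splits sucrose (AT1G12240, A_46_P171049), had an HT mean of 9.07 ± 0.02 at 27 °C and 8.28 ± 0.36 at 15 °C (SD, n = 3 each), and the ARF-GAP protein AGD3 of vesicle traffic (AT5G13300, A_46_P263040) had 8.32 ± 0.24 and 7.56 ± 0.14. At 27 °C both lay at or above the top of their HS range.

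In the downward set, the largest difference belonged to the sigma factor-binding protein gene SIB1 (AT3G56710, A_46_P162329), whose product acts in plastids and in defence in Arabidopsis. It read 12.20, 11.67 and 10.11 in HT at 15 °C, 9.05, 9.04 and 9.02 at 22 °C and 8.52, 8.74 and 8.11 at 27 °C, against 9.61 to 10.10 (median 9.86) in HS. HT was thus above every HS array at 15 °C, although the third HT array (10.11) only barely exceeded the highest HS array (10.10). At 22 °C and 27 °C HT was below every HS array. WRKY53 (AT4G23810, A_46_P024351), a transcription factor of senescence and defence in Arabidopsis, read 9.19, 8.77 and 7.08 in HT at 15 °C, 6.19, 6.58 and 6.15 at 22 °C and 6.67, 6.87 and 6.48 at 27 °C, against 6.51 to 7.31 (median 6.85) in HS. In both genes the third HT array at 15 °C lay far below the other 2, and for WRKY53 it lay within the HS range. Neither differed between HT and HS over the 3 temperatures by a margin that passed (−0.24 ± 0.22, adjusted p = 0.448 for SIB1 and 0.23 ± 0.24, adjusted p = 0.488 for WRKY53, SE, limma).

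A locus annotated as a protein kinase (AT2G40270) was read by 3 downward members, of which 2 (A_46_P098994 and A_46_P351550) share a target and are not separate evidence. A_46_P374920 read 12.41, 11.66 and 10.77 in HT at 15 °C, 10.32, 9.89 and 10.07 at 22 °C and 9.88, 9.96 and 9.09 at 27 °C, against 9.77 to 10.25 in HS. A_46_P098994 read 9.54, 8.79 and 7.89, then 7.35, 6.95 and 7.18, then 7.27, 7.14 and 6.54 in HT, against 6.68 to 7.24 in HS. A_46_P351550 read 9.22, 8.50 and 7.51, then 7.20, 7.10 and 7.45, then 7.06, 7.14 and 6.93 in HT, against 6.57 to 7.03 in HS. All 3 put the HT arrays at 15 °C in the same order, and all 3 had HT near the HS level at 22 °C and 27 °C.

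Other kinases and receptor-type genes were in the downward set. AT2G37710 (A_46_P239639), annotated as induced by salicylic acid, read 14.48, 14.23 and 13.25 in HT at 15 °C, 12.91, 13.21 and 12.81 at 22 °C and 12.91, 13.12 and 13.21 at 27 °C, against 11.66 to 12.90 in HS. The cysteine-rich receptor-like kinase CRK10 (AT4G23180, A_46_P383798) read 12.53, 12.26 and 11.65, then 11.39, 11.21 and 11.09, then 11.46, 11.44 and 10.99 in HT, against 10.46 to 10.87 in HS. The HT means of both were above the HS means at each temperature, although 1 HT array of AT2G37710 at 22 °C lay within the HS range. The HT minus HS difference over the 3 temperatures was 0.98 ± 0.21 (SE, limma adjusted p = 0.00189) and 0.84 ± 0.11 (adjusted p = 2.7e-05). At 22 °C alone that of AT2G37710 did not pass (0.72 ± 0.36, limma adjusted p = 0.211). A calmodulin-binding receptor-like kinase (AT5G58940, A_46_P305769) read 7.79, 7.42 and 7.55, then 7.49, 7.10 and 6.74, then 6.39, 6.56 and 6.90 in HT, against 5.96 to 6.74 in HS. A relative of the defence proteins HIN1 and NDR1 (AT3G11660, A_46_P160989) read 9.34, 8.58 and 7.96, then 7.86, 7.60 and 7.32, then 8.12, 7.98 and 7.06 in HT, against 7.82 to 8.64 in HS, and its HT arrays at 27 °C and 15 °C overlapped. The extra-large G protein XLG2 (AT4G34390, A_46_P328525) had an HT mean of 8.92 ± 0.02 at 27 °C and 9.70 ± 0.19 at 15 °C (SD, n = 3 each).

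The rest of the named downward members were enzymes and 1 proline-rich protein. The vacuolar processing enzyme γVPE, a protease of senescence and cell death (AT4G32940, A_46_P203829), read 7.36, 7.85 and 7.47 in HT at 15 °C, 6.86, 7.05 and 7.0 at 22 °C and 6.67, 6.64 and 5.70 at 27 °C, against 5.79 to 6.82 in HS. The purple acid phosphatase PAP29 (AT5G63140, A_46_P030446), of a family that releases phosphate from organic compounds, read 11.37, 10.76 and 10.30, then 10.12, 9.86 and 10.11, then 9.98, 9.94 and 9.69 in HT, against 9.50 to 9.78 in HS. A second purple acid phosphatase (AT1G13750, A_46_P286458) had 7.50, 7.50 and 7.24 in HT at 15 °C and 6.75, 6.71 and 6.14 at 27 °C. In these 3, HT exceeded HS over the 3 temperatures by 0.89 ± 0.15, 0.61 ± 0.11 and 0.70 ± 0.08 (SE, limma adjusted p = 0.000366, 0.000543 and 9.56e-06). A Rossmann-fold oxidoreductase (AT2G29150, A_46_P164829) averaged 10.15 ± 0.12 in HT at 27 °C and 10.95 ± 0.75 at 15 °C (SD, n = 3 each), a difference about the size of the replicate spread. The proline-rich protein AT2G41420 (A_46_P363280) read 10.86, 9.50 and 7.50, then 8.44, 6.66 and 7.58, then 7.34, 7.27 and 5.26 in HT, against 5.89 to 7.77 in HS, with a spread in each HT group of more than 1 log2 unit from its lowest to its highest array.

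**Figure D3:**
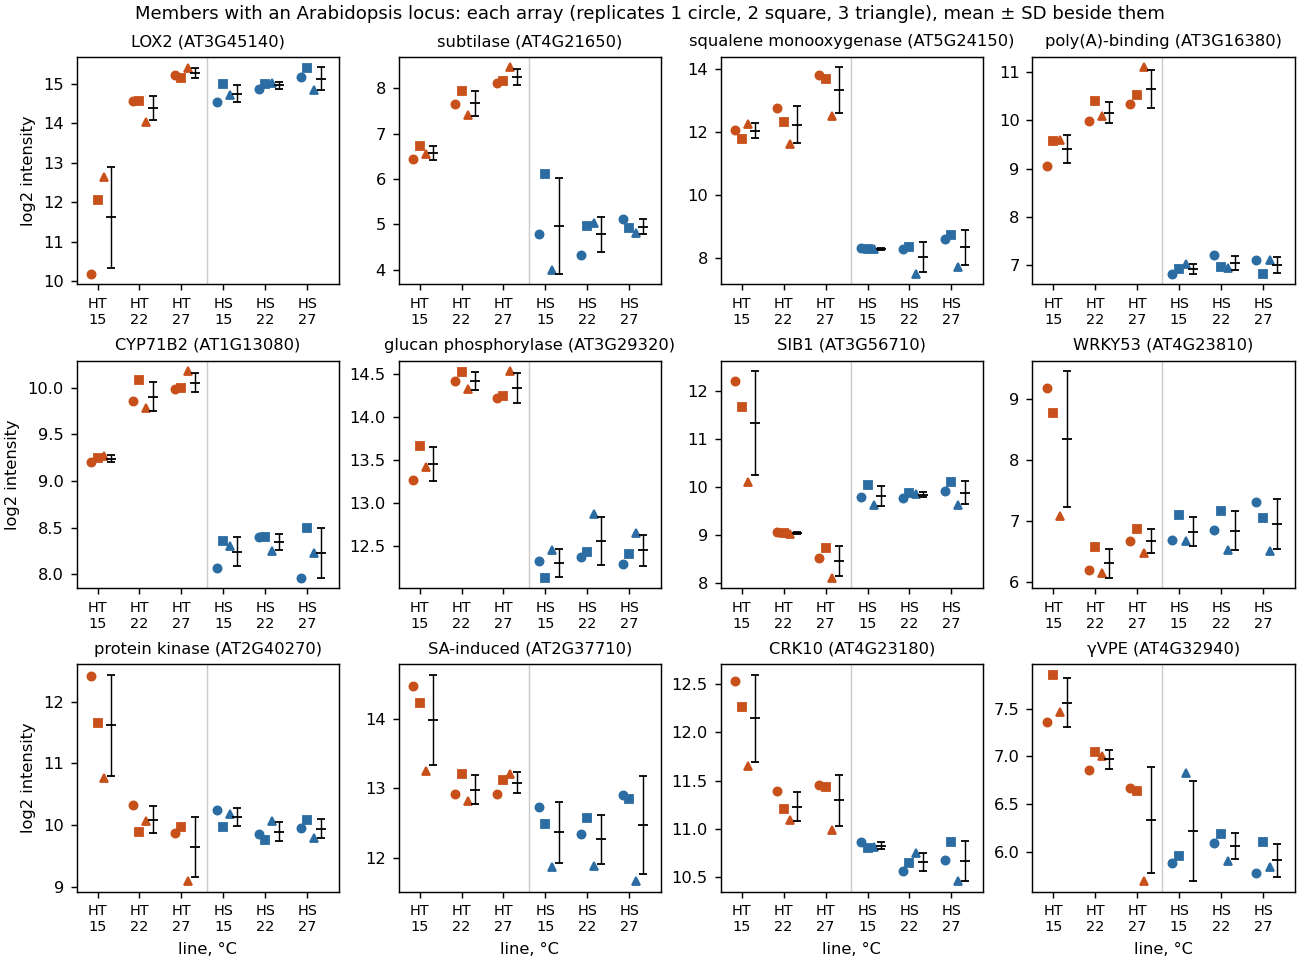
Log2 intensity of 12 members with an Arabidopsis locus on each array (circle, square and triangle for replicates 1, 2 and 3) with the group mean ± SD (n = 3) beside the points, HT left of HS. LOX2 in HT reaches the HS range at 27 °C. At 15 °C, WRKY53 is above the HS range in 2 of 3 HT arrays. SIB1 is above it in all 3, but the third (10.11) only barely exceeds the highest HS array (10.10).

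Other members with large differences had no annotation. A_46_P384233 in the upward set read 4.66, 5.06 and 5.54 in HT at 15 °C, 6.09, 6.17 and 6.18 at 22 °C and 7.38, 7.65 and 7.28 at 27 °C, against 6.45 to 8.26 in HS. A_46_P136084 read 7.20, 7.12 and 7.06, then 7.57, 8.03 and 7.38, then 8.25, 8.75 and 8.37 in HT, against 11.51 to 12.37 in HS. Both climbed step by step in HT, the first into the HS range and the second far below it. In the downward set, A_46_P342495 read 8.87, 8.23 and 7.14, then 5.96, 5.41 and 5.62, then 5.91, 5.51 and 5.06 in HT, against 6.62 to 7.56 in HS. A_46_P191374 read 9.60, 9.38 and 8.45, then 7.68, 7.98 and 7.997, then 7.08, 7.23 and 7.10 in HT, against 9.37 to 9.61 in HS. A_46_P214199 read 12.33, 12.08 and 11.12, then 10.52, 10.69 and 10.71, then 9.94, 9.99 and 9.82 in HT, against 12.40 to 12.64 in HS. At 15 °C the HT minus HS difference was −0.28 for A_46_P191374 and −0.65 for A_46_P214199, whose HT arrays all lay below HS. In both, HT lay far below all HS arrays at 27 °C.

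The other members named for size had similar courses. In the upward set, A_46_P009856 had HT means of 8.51, 9.50 and 10.0 at 15, 22 and 27 °C, A_46_P089021 had 5.92, 7.37 and 7.21, A_46_P066761 had 6.76, 7.30 and 7.95, and A_46_P050316 had 7.13, 6.98 and 8.31. For A_46_P089021 the change was complete at 22 °C, and for A_46_P050316 it lay wholly between 22 °C and 27 °C. In the downward set, A_46_P043876 had HT means of 11.1, 9.33 and 8.78, A_46_P317395 had 9.10, 7.31 and 6.86, A_46_P274778 had 10.9, 8.95 and 8.88, and A_46_P316515 had 9.60, 7.70 and 7.73. A_46_P274778 lay above HS (8.01 to 8.46) on 7 of the 9 HT arrays, and its HT replicates at 27 °C ranged from 7.27 to 10.10.

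The course at 22 °C is given as a description, because each step uses HT arrays at 15 °C or 27 °C, and these chose the members. It cannot be told apart from slide either, as the arrays at 22 °C and 27 °C shared 3 slides and those at 15 °C lay on 2 others. The median downward member differed by −0.80 log2 units between 22 °C and 15 °C in HT and by −0.25 between 27 °C and 22 °C. The median upward member differed by 0.52 and 0.40. The HT mean at 22 °C was nearer to that at 27 °C than to that at 15 °C in 63 of 74 downward members (85.1%) and 43 of 76 upward members (56.6%), against 60.2% of the probes with a flat HS line. On the slides that held both temperatures, HT was higher at 27 °C than at 22 °C on 3 of 3 slides in 42 upward members and lower on 3 of 3 slides in 36 downward members. On each of these slides HT at 22 °C lay at position 4 and HT at 27 °C at position 2, so this step cannot be told apart from array position. The share over all probes was not computed, and nothing is read from these counts.

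The rule did not use the HT arrays at 22 °C, and their deviation from the midpoint between 15 °C and 27 °C was tested, although the midpoint itself is built from arrays that the rule used. It passed in 3 members by limma, 1 above the midpoint (0.667% of the members, where 1.19% of all probes were called higher) and 2 below it (1.33%, where 1.01% were called lower), shares near those of all probes. A_46_P227569 read 7.06, 7.13 and 6.85 in HT at 22 °C, below the 8.79, 8.62 and 9.44 at 15 °C and the 7.996, 7.86 and 7.90 at 27 °C, with a deviation of −1.42 (adjusted p = 0.000249). A_46_P303890 read 7.82, 8.04 and 7.75 at 22 °C, 9.54, 9.29 and 8.82 at 15 °C and 7.85, 8.29 and 8.11 at 27 °C, with −0.78 (adjusted p = 0.0173). A_46_P170714, in the upward set, read 9.82, 9.38 and 9.20 at 22 °C, 8.34, 7.98 and 8.51 at 15 °C and 9.45, 9.31 and 8.77 at 27 °C, with 0.74 (adjusted p = 0.0337). None of these 3 has a gene name here. Without the third HT array at 15 °C, 16 members were called below the midpoint, where 1.21% of all probes were called, so that this count rests on that array.

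HT and HS also differed in level, which the rule did not use directly. Averaged over the 3 temperatures, HT was higher than HS in 37 members (24.7%), where 20.9% of all probes were called higher, and lower in 57 members (38.0%), where 15.1% of all probes were called lower (limma adjusted p under 0.05). Among the 14854 probes with a flat HS line the shares were 27.9% and 19%. The members thus held more probes lower in HT than that background, while the share of probes higher in HT was near it. That background was not matched to the members, which were dimmer and varied more between replicates. Whether a choice by the size of the HT difference favours probes that are dim in HT was not tested. The median absolute difference between HT and HS was 0.63 log2 units for the members and 0.17 for the probes with a flat HS line.

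Crossing the 2 sets with this call gave 6 courses. Of the upward members, 31 were lower in HT, and there the median HT minus HS difference was −1.74 at 15 °C, −1.22 at 22 °C and −0.59 at 27 °C, so that the median approached HS with warmth. Another 17 were higher in HT, with medians of 0.78, 1.56 and 1.68 that moved away from HS. The other 28 had no call, with medians of −0.24, 0.15 and 0.60, and in 19 of them HT lay on opposite sides of HS at 27 °C and 15 °C. Of the downward members, 20 were higher in HT, with medians of 1.33, 0.40 and 0.29 that approached HS, and 26 were lower in HT, with medians of −0.41, −1.18 and −1.51 that moved away from it. The remaining 28 had no call, with medians of 0.70, −0.33 and −0.51, and in 23 of them HT lay on opposite sides of HS at 27 °C and 15 °C. The direction of these courses between 15 °C and 27 °C is fixed by how the members were chosen, whereas the side on which HT lay was not.

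**Figure D4:**
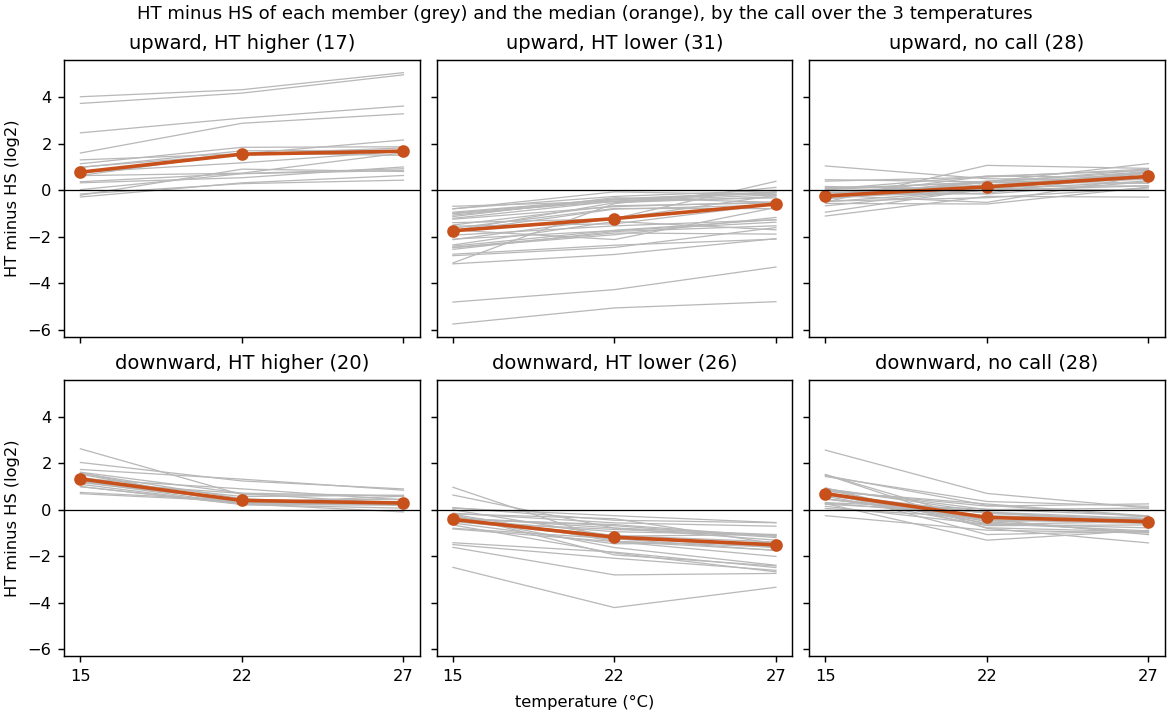
HT minus HS in log2 units at 15, 22 and 27 °C for each member (grey) and the median of each panel (orange), with upward members in the upper and downward members in the lower row, by whether HT was called higher, lower or neither over the 3 temperatures. The median of the 31 upward members with HT lower runs towards 0 with temperature (−1.74, −1.22 and −0.59).

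The members with the smallest p for HT lower than HS over the 3 temperatures were A_46_P136084 (−4.13 ± 0.13, adjusted p = 3.52e-12), A_46_P335610 (−2.41 ± 0.07, adjusted p = 1.19e-12) and A_46_P227569 (−3.34 ± 0.10, adjusted p = 2.9e-12, SE, limma). Those for HT higher were the squalene monooxygenase 1,1 probe given above, the poly(A)-binding protein (3.07 ± 0.11, adjusted p = 1.99e-11) and AT4G09830 (1.69 ± 0.07, adjusted p = 1.34e-10). Each of these 6 kept HT on the same side of HS on all arrays. At 22 °C alone, HT was higher in 19 members (11.0% of all probes were called higher) and lower in 44 (9.40% were called lower). Of the 44, 24 belonged to the downward set and 20 to the upward set, and of the 19, 6 and 13. At 22 °C the smallest p for HT higher belonged to the squalene monooxygenase 1,1 probe (4.34 ± 0.19, adjusted p = 4.03e-10), the poly(A)-binding protein and CYP71B2 (1.56 ± 0.12, adjusted p = 3.11e-07). Those for HT lower belonged to A_46_P227569 (−4.21 ± 0.18, adjusted p = 2.86e-10), A_46_P335610 (−2.37 ± 0.12, adjusted p = 1.92e-09) and A_46_P136084 (−4.28 ± 0.22, adjusted p = 3.07e-09).

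As a comparison, the rule was turned round to take the 150 probes with the largest difference in HS and a flat HT line. That set held 81 probes higher and 69 lower at 27 °C, its largest difference was 2.36 and its last 0.793 log2 units, and 61 of its probes differed by at least 1, where 62 of the members did. HT was higher than HS over the 3 temperatures in 89 of these 150 probes and lower in 19. This difference from the members, of which 37 and 57 were called, was not tested.

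For 9 loci of members, the annotation held further probes assigned to the same locus. It lists probes that differed between the lines or followed temperature on these arrays, and probes that did neither are missing from it. How far a flat HS line belongs to the gene therefore cannot be read from these further probes, and their values are given as a description. The 2 other AT2G37710 probes had 27 °C minus 15 °C differences of −1.03 and −0.99 log2 units in HT and of 0.43 and 0.34 in HS, so both were lower at 27 °C in HT only, but 1 of them (A_46_P381598) shares the member's target and is not separate evidence. The LOX2 member had 3.64 in HT and 0.38 in HS on these quantile-normalised values, where its HS difference lay outside the window of 0.3. One further LOX2 probe (A_46_P040601, well above background on 17 arrays) was similar, with 3.58 in HT and 0.26 in HS. The remaining pair of LOX2 probes had 1.15 and 0.69 in HT and 0.96 and 0.92 in HS. The other subtilase probe had 1.68 in HT and 1.48 in HS. Of the other probes of the proline-rich gene AT2G41420, 3 had −0.67 to −0.79 in HT and −0.93 to −0.97 in HS, and 1 had −2.71 and −0.51. The glucan phosphorylase probes had 0.98 and 1.21 in HT and 0.74 and 0.98 in HS. For the last 3 genes, therefore, the other annotated probes differed in both lines, and of the annotated probes only the member was flat in HS. Of the other γVPE probes, 2 had −1.18 and −1.11 in HT and −0.68 and −0.47 in HS, and 1 had the opposite sign, with 0.50 in HT and 0.32 in HS. The other AT4G09830 probe also had the opposite sign to its member, with −0.39 in HT and −0.51 in HS. The other AGD3 probe had 0.67 in HT and 0.38 in HS. Outside the window of 0.3 in HS also lay the other probes of γVPE, AT4G09830, AGD3 and AT2G37710, and the pair of LOX2 probes given above. Over all other annotated probes of members' loci that were well above background everywhere, 5 of 6 for upward and 7 of 8 for downward members had the member's sign in HT. Their median differences were 0.83 and −0.89 in HT and 0.83 and −0.57 in HS. Nothing is read from these counts, because of how the probes came to be annotated. Whether such probes read different copies of the gene was not tested. Some unnamed members shared a target with a further probe that was well above background on all arrays. In HT, A_46_P065951 had 1.19 and the further probe of its target only 0.18. A_46_P043586 had 0.87 and its further probe 0.80, and A_46_P367730 had −0.78 and its further probe −0.43. In HS these further probes had 0.08, 0.30 and −0.02.

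**Figure D5:**
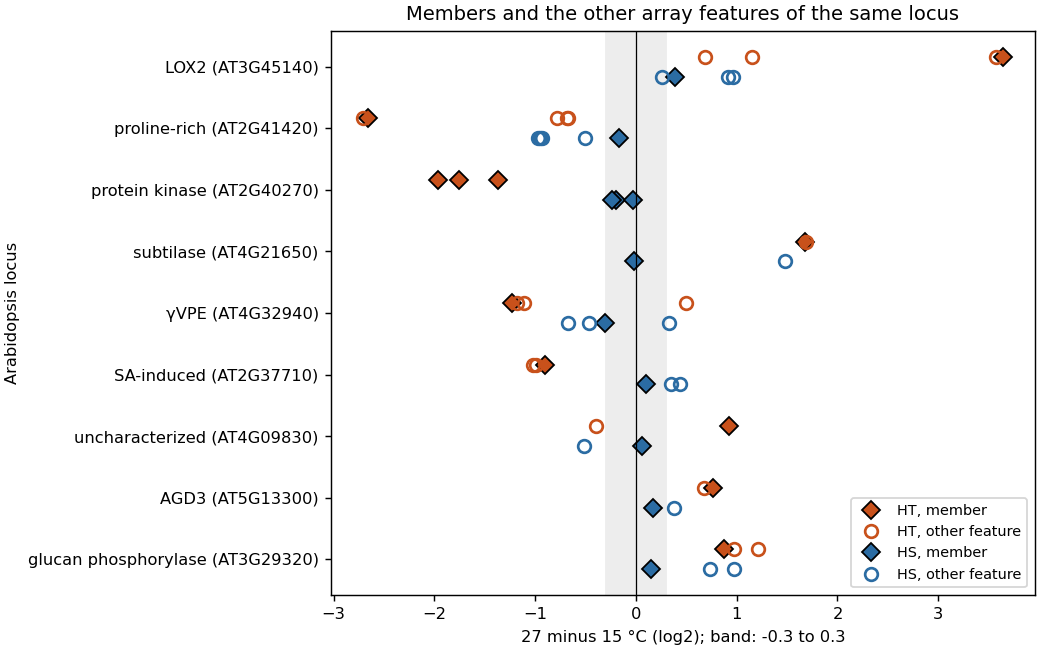
Difference between 27 °C and 15 °C in log2 units (x axis) for members (filled diamonds) and other annotated probes of the same Arabidopsis locus (open circles), HT above HS in each row, with the band of −0.3 to 0.3 shaded. The other probes of the glucan phosphorylase, the subtilase and the proline-rich gene lie outside the band in HS (0.74 and 0.98, 1.48, and −0.97 to −0.51).

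The study's annotation covered 3122 of the probes, and 15 lists of genes were drawn from its descriptions. Members appeared in 5 of them. The defence list (83 probes) held LOX2 from the upward and AT2G37710 and AT3G11660 from the downward set, the receptor kinase list (39 probes) held AT5G58940 and CRK10, the transcription factor list (100 probes well above background on all arrays) held WRKY53, the hormone list (71 probes) LOX2 and the cell wall list (87 probes) the subtilase. Among probes well above background on all arrays, 9 of 76 in the defence list and 14 of 35 receptor kinases were flat in HS. So were 17 of 100 transcription factors, 7 of 64 in the hormone list and 14 of 77 in the cell wall list. Over all such probes on the array, 14854 of 26247 were flat in HS. Of the 3122 annotated probes, 581 were well above background on all arrays and flat in HS. Probes were annotated because they differed on these arrays, so the shares of the lists cannot be set against that of the whole array. Nothing is read from them.

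Of all 43603 probes, limma called 8.87% higher and 9.25% lower at 27 °C than at 15 °C in HT, and 7.95% higher and 8.04% lower in HS. The difference between the lines was called upward in 0.147% and downward in 0.232%. The listed probes were annotated because they differed on these arrays, so their counts are not independent evidence. Across the whole defence list, 30 probes were higher and 23 lower at 27 °C than at 15 °C in HT, and 23 were higher and 18 lower in HS, while the difference between the lines was called upward in 3 and downward in 6. In the receptor kinase list these counts were 13 and 11 in HT and 9 and 7 in HS, and in the transcription factor list 41 and 23 in HT and 38 and 21 in HS. In the hormone list they were 27 and 13 in HT and 21 and 14 in HS, and in the cell wall list 28 and 23 in HT and 20 and 24 in HS. Calls were thus made in both lines in each of these lists, and the members are a small share of the listed probes. No member was found in the lists of heat shock proteins and chaperones (52 probes, 6 of them flat in HS), ribosomal proteins (68, 15 flat), photosynthesis (18, 4 flat), flowering (29, 7 flat), cold and water stress (54, 5 flat) or redox (55, 5 flat). The same held for glucosinolates and phenylpropanoids (32, 0 flat), chromatin and cell division (61, 17 flat), transporters (82, 11 flat) and lipid metabolism (110, 13 flat).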

How the data were processed

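Shoot meristem RNA of each sample was hybridised to a 1-colour Agilent 4x44k Brassica array, with 18 arrays in all. The authors deposited the scanner output, in which the intensity of each spot is background-corrected and not normalised between arrays, per the file headers. The authors also deposited log2 values, which match the log2 intensity minus its array's 75th percentile, centred on the probe's median (99% of values within 0.0019). The methods name RMA with a median baseline in GeneSpring and a t-test. The deposited log2 values were used to choose the members, whose HS window was 0.3.

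For all else, control spots and spots with outlier marks were dropped, and log2 intensities were quantile-normalised. Of the 43603 probes, 165 lacked a value on some array, 2 members among them, and a fit used the arrays present. limma 3.58.1 in R 4.3.3 fitted 1 mean per line and temperature over the 18 arrays (12 residual degrees of freedom). The Benjamini-Hochberg adjustment ran over all probes, and an adjusted p under 0.05 made a call. The tests were HT minus HS over the 3 temperatures, HT minus HS at 22 °C, and HT at 22 °C minus the midpoint of 15 and 27 °C. They were also run on simulated data with independent noise. Those data held no slide effect and no choice of members by the rule, so that run does not cover either. Differences between 27 °C and 15 °C, within and between lines, were called for the gene lists only. The number of arrays limits the precision, as an exact test of 3 arrays against 3 cannot go below p = 0.1.

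The members and lists were chosen with earlier results of these data known. Named genes are the 10 largest differences in each direction, the 12 largest with an annotation in each direction, the 3 smallest p in each direction and test, members at the limit of the choice, and loci read by several members. Smaller annotated members were added after their values were seen. Gene names come from incomplete copies of the study's tables. No array target was found in the RefSeq table of 53125 genes, so no sequences are given. Alternatives were the 75th percentile shift, normexp with an offset of 50, the authors' log2 values, bright probes only, replicate or slide as a block, subsets of arrays, the methods' t-test, an adjusted p under 0.1, other windows and leaving out each array. Recounting the course at 22 °C under other scalings was added after seeing the data. Tables were handled in Python 3.11.15 with numpy 2.4.6 and pandas 2.3.3, and figures drawn with matplotlib 3.10.9.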

Additional observations from a re-analysis of the deposited data

How the results depend on the processing

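Of 64 recomputed counts, 49 stayed within 1.5 times their reported value. The call of HT at 22 °C against the midpoint of 15 and 27 °C depended most on the processing. The 1 member above the midpoint became 2 with the 75th percentile shift, the authors' values, bright probes only or slide as a random block, 3 at an adjusted p under 0.1, and 0 with only the HT arrays, where limma at an unadjusted p under 0.05 gave 7 above and 15 below. The 2 members below it became 4 with bright probes only, 5 at an adjusted p under 0.1 and 1 with only the HT arrays. Leaving out each array gave 0 to 2 above and 1 to 16 below. The 16 came without HT replicate 3 at 15 °C, and 1 came without HT replicate 1 or 3 at 22 °C. None was called above it without HT replicate 1 at 15 °C, 1 or 2 at 22 °C or 2 at 27 °C, or HS replicate 1 at 22 °C, and 2 were without HT replicate 3 at 15 °C or 27 °C or HS replicate 3 at 22 °C. The methods' t-test at an unadjusted p under 0.05 gave 31 members higher in HT at 22 °C. The rule itself chose 91 of the same members on normexp values, 86 with a window of 0.2 and 66 with a window of 0.5, always with the same sign. Without 1 of the arrays that the rule used, it chose 106 to 134 of them. The HT arrays at 22 °C do not enter the rule.

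Deviations of same-numbered arrays correlated between −0.183 and 0.601 (median 0.191, against −0.134 for different numbers), and many of these arrays shared a slide. At 22 °C the same-numbered pairs of HT and HS were at 0.177, 0.601 and 0.513. At 15 °C they were at 0.39, 0.51 and 0.32, and at 27 °C at 0.0172, 0.31 and 0.20. Same-numbered HT and HS arrays shared a slide at each temperature, so pairing by number cannot be told apart from slide. With the replicate block, HT was higher than HS over the 3 temperatures in 39 members and lower in 61, and at 22 °C in 20 and 47, while 3 members were above and 5 below the midpoint. Without 1 array, HT was higher over the 3 temperatures in 34 to 41 members and lower in 54 to 59, higher at 22 °C in 13 to 19 and lower in 35 to 49, and 39 to 49 upward and 58 to 67 downward members had HT at 22 °C nearer to 27 °C. Of 408 recomputations of 15 named calls, 398 passed again and 10 did not, all 10 for A_46_P170714 or A_46_P303890 against the midpoint, and none changed sign. Signal near background limits the 36 members whose HS mean was dim.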

Other observations

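Of the members, 14 belonged to co-expression modules named in the study's tables, 7 to the brown, 2 each to the magenta, pink and purple and 1 to the dark-green module, all of which were built on these arrays. Squalene monooxygenase (AT5G24150) was lowest in replicate 3 in each group at 22 °C and 27 °C, in both lines. It read 11.62 in replicate 3 and 12.77 and 12.32 in the others in HT at 22 °C, 12.50 against 13.80 and 13.69 in HT at 27 °C, 7.51 against 8.29 and 8.35 in HS at 22 °C and 7.72 against 8.60 and 8.74 in HS at 27 °C. These 4 replicate 3 arrays shared a slide, and their part in the value was not tested. The HT difference between the higher temperature and 22 °C was between 0.88 and 1.37 log2 units on the 3 slides.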
